A study of Mus musculus with 8 samples.

Results

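The miRNA miR-21a was followed through its 2 mature arms, mmu-miR-21a-5p and mmu-miR-21a-3p, in 8 Illumina small RNA libraries of mouse 3T3 cells, an immortalized fibroblast line. The arms were chosen by name among the perfectly matching counts, and are 2 of the 1966 mature miRNA names counted there. Cells were taken 48 h after transient transfection with U6-Lin28aIR, CAG-EGFP-Lin28IR, U6-MosIR or CAG-EGFP-MosIR, with 2 libraries per plasmid from separately transfected wells. All 4 plasmids express a long RNA hairpin, so each library comes from cells that were given a plasmid and a source of dsRNA, and no untransfected library was analyzed here. The U6 promoter is read by RNA polymerase III, and the CAG promoter is a strong ubiquitous promoter of RNA polymerase II. Plasmids with the CAG promoter also encode EGFP and give hairpins with a longer dsRNA part and long single-stranded overhangs, so promoter, reporter, length and hairpin ends cannot be told apart. The paper marks a Lin28b segment in the CAG-EGFP-Lin28IR hairpin and names U6-Lin28aIR after Lin28a only, so sequence differs too between the Lin28 plasmids. Transfection was transient and each library holds the RNA of a whole well. The labels name a dose of 250 ng/well in 24-well format, and the paper's methods another amount and a larger well. In bulk RNA, a change in the number of cells that make a miRNA and a change in its amount per cell cannot be told apart.

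A miRNA gene is transcribed into a long primary RNA, from which Drosha cuts a hairpin in the nucleus. Dicer, the enzyme that also cuts long dsRNA into siRNAs, removes the loop in the cytoplasm and leaves a duplex of both arms. As a rule an Argonaute protein keeps 1 arm, the guide, and the other is degraded. The guide of miR-21a is the 5p arm, which pairs with mRNAs through bases 2 to 8, the seed. In mammals miR-21 is known for high levels in cultured fibroblasts and in many tumors, for induction through AP-1, STAT3 and TGF-β signaling, and for repressing Pdcd4, an inhibitor of translation, and Spry1, an inhibitor of growth factor signaling.

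The mature sequences of both arms and of the miR-21 paralogs named in the counts, from RefSeq on GRCm38.p6, are shown with the seed in capitals, because the seed and the bases toward the 3′ end decide which reads can be told apart.
mmu-miR-21a-5p: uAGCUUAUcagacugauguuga
mmu-miR-21a-3p: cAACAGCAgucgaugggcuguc
mmu-miR-21c: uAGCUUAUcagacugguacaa
mmu-miR-21b: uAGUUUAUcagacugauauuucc

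Both arms are 22 nt long. The 5p arm lies at chr11:86584120-86584141 and the 3p arm at chr11:86584082-86584103, both on the minus strand, with 16 bases between them, in the 92-nt hairpin Mir21a. In the GENCODE M21 annotation the hairpin falls, on the same strand, in the 3′ UTR and last exon of Vmp1, a gene of autophagy. Of the 1679 mature mouse names in the RefSeq table, 1 other name shares the seed of the 5p arm and 0 share that of the 3p arm. Counted names that this table lacks were not checked for either seed. The name that shares the 5p seed is miR-21c (chr8:128278188-128278208, minus strand, in no other annotated gene). Counted from base 1 at the 5′ end of miR-21a-5p and without gaps, miR-21c has the same first 15 bases and then the changes A16G, G18A, U19C, U20A and G21A. miR-21b (chr3:29636768-29636790, plus strand, inside Egfem1 and outside its annotated exons) differs by C4U in the seed and by G18A, G21U and A22C.

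The 5p arm was the most abundant miRNA in each of the 8 libraries, and the 3p arm was rarer by 1288 to 3172 times. Levels are given first as RPM, the count scaled to 1000000 perfectly mapped reads of all lengths. Libraries held 12898619 to 16228597 such reads, so a count of 0 would allow up to 0.185 to 0.233 RPM, for counting error only. The 5p arm had 737489 and 1037133 counts with U6-Lin28aIR, 492927 and 450456 with CAG-EGFP-Lin28IR, 1015414 and 761966 with U6-MosIR, and 501061 and 661973 with CAG-EGFP-MosIR. The lowest of these counts is high enough that counting error is far below the difference between replicates.

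In RPM, the 5p arm reached 57176 and 68689 with U6-Lin28aIR, 35100 and 28279 with CAG-EGFP-Lin28IR, 62569 and 54075 with U6-MosIR, and 35297 and 44943 with CAG-EGFP-MosIR. Every U6 library was above every CAG-EGFP library, and the 2 libraries of each plasmid lay within 1.27 times of each other. The mean was 60627 ± 6419 RPM with U6 plasmids and 35905 ± 6852 RPM with CAG-EGFP plasmids (SD, n = 4 libraries each, from 2 plasmids), a ratio of 1.69. Exact p-values here come from two-sided permutation tests, with 70 ways to split 8 libraries evenly, and the adjusted p beside them is over the 14 such tests that were run. For the 5p arm in RPM the exact p was 0.0286, the smallest such a test can give, with adjusted p = 0.133. With 8 libraries and 14 tests, no result of this family could pass the threshold of 0.05 after adjustment. The adjusted p therefore cannot decide whether the promoters differ. In RPM, 31.1% of the 360 miRNAs with enough counts to be tested were likewise higher in every U6 library than in every CAG-EGFP library.

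The 3p arm had 393 and 327 counts with U6-Lin28aIR, 228 and 218 with CAG-EGFP-Lin28IR, 475 and 374 with U6-MosIR, and 389 and 213 with CAG-EGFP-MosIR. These are 30.5 and 21.7 RPM with U6-Lin28aIR, 16.2 and 13.7 RPM with CAG-EGFP-Lin28IR, 29.3 and 26.5 RPM with U6-MosIR, and 27.4 and 14.5 RPM with CAG-EGFP-MosIR. The groups overlapped, because CAG-EGFP-MosIR replicate 1 stood within the U6 range. The mean was 27.0 ± 3.91 RPM with U6 plasmids and 17.9 ± 6.39 RPM with CAG-EGFP plasmids (SD, n = 4 each; ratio 1.50; exact p = 0.0857, adjusted p = 0.300). Over all 8 libraries the 3p arm stood at rank 153 of the 1019 names with a count, between miR-29b-1-5p (22.9 ± 4.65 RPM) and miR-324-3p. Its own level was 22.5 ± 6.89 RPM (SD, n = 8 each), and the gap to either neighbor was smaller than this spread.

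**Figure D1:**
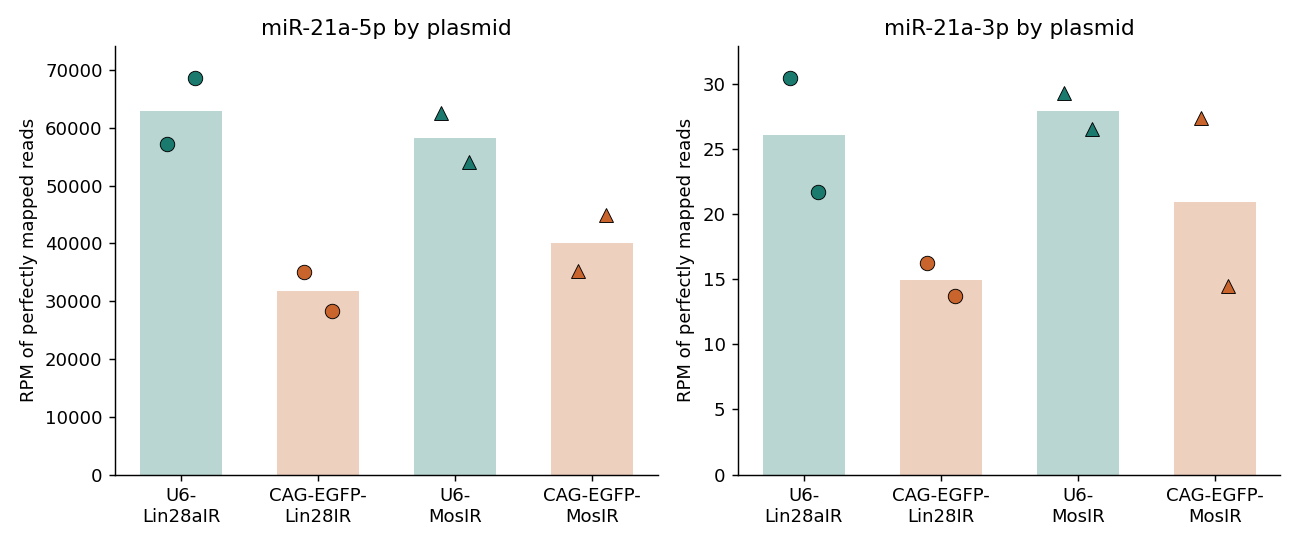
Level of the 5p arm (left) and the 3p arm (right) in RPM of perfectly mapped reads for the 4 plasmids; bars are means and points the 2 libraries of each plasmid, circles for Lin28, triangles for Mos, green for U6 and orange for CAG-EGFP. All 4 U6 libraries lie above all 4 CAG-EGFP libraries for the 5p arm, while for the 3p arm CAG-EGFP-MosIR replicate 1 (27.4 RPM) lies within the U6 range.

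As a scale for the 5p arm, the 4 next most abundant miRNAs were let-7f-5p (10184 ± 2988 RPM), miR-31-5p (8525 ± 2108 RPM), let-7a-5p (6094 ± 1384 RPM) and miR-26a-5p (5482 ± 1641 RPM; SD, n = 8 each). The let-7 miRNAs are known for repressing growth genes, and miR-31 and miR-26a are common in mesenchymal cells. The 5p arm had 3.89 to 5.47 times the RPM of the second miRNA of the same library. Neither let-7f-5p and miR-31-5p nor let-7a-5p and miR-26a-5p differed by more than their SDs, whereas the highest library of let-7f-5p, at 14560 RPM, was below the lowest of the 5p arm. The ratio of U6 to CAG-EGFP means was 1.50 for let-7f-5p, 1.35 for miR-31-5p, 1.30 for let-7a-5p and 1.60 for miR-26a-5p, beside 1.69 for the 5p arm. Over all 360 miRNAs the median ratio in RPM was 1.41, 50 of them had a higher ratio than the 5p arm, and 0 of these 50 were among the 31 miRNAs with at least 1000 RPM, a limit set after the values were seen.

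The length of the reads also differed between the promoters. Reads of 21–23 nt, the length class of Dicer products, were 16.1% ± 1.28 of mapped reads with U6 plasmids and 12.1% ± 1.95 with CAG-EGFP plasmids (SD, n = 4 each), and miRNA counts came to 19.6% ± 1.70 of them with U6 plasmids and 13.5% ± 2.30 with CAG-EGFP plasmids. The 5p arm was therefore also set against both of these totals. Per 100 reads of 21–23 nt it had 36.7 and 38.1 counts with U6-Lin28aIR, 28.5 and 28.6 with CAG-EGFP-Lin28IR, 40.9 and 34.9 with U6-MosIR, and 30.4 and 30.8 with CAG-EGFP-MosIR. It is no share of those reads, because miRNA counts exceeded the 21–23-nt reads in all 8 libraries and so include other lengths or repeated counts. The mean was 37.7 ± 2.53 with U6 plasmids and 29.6 ± 1.183 with CAG-EGFP plasmids (SD, n = 4 each; ratio 1.27; exact p = 0.0286, adjusted p = 0.133). On this scale the promoters again did not overlap, a pattern seen for 6.94% of the 360 miRNAs with U6 higher.

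Of the miRNA counts themselves, the 5p arm took 30.4% and 31.0% with U6-Lin28aIR, 25.9% and 26.0% with CAG-EGFP-Lin28IR, 33.5% and 28.9% with U6-MosIR, and 26.7% and 27.3% with CAG-EGFP-MosIR. The 95% Wilson intervals of these shares extended at most 0.0653 points to either side, for counting error only. The lowest U6 library stood 1.62 points above the highest CAG-EGFP library. The mean share was 31.0% ± 1.92 with U6 plasmids and 26.5% ± 0.664 with CAG-EGFP plasmids (SD, n = 4 each; ratio 1.17; exact p = 0.0286, adjusted p = 0.133). A share that was higher in every U6 library was found for 1.94% of the 360 miRNAs, or 7 of them. The 5p arm thus kept its order between the promoters on all 3 scales, with a ratio that was 1.69, 1.27 and 1.17. In each case the adjusted p was above 0.05, which it could not fall below in this family of tests. The miRNA counts include the 5p arm itself, and against the other miRNA counts alone the ratio was 1.25.

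**Figure D2:**
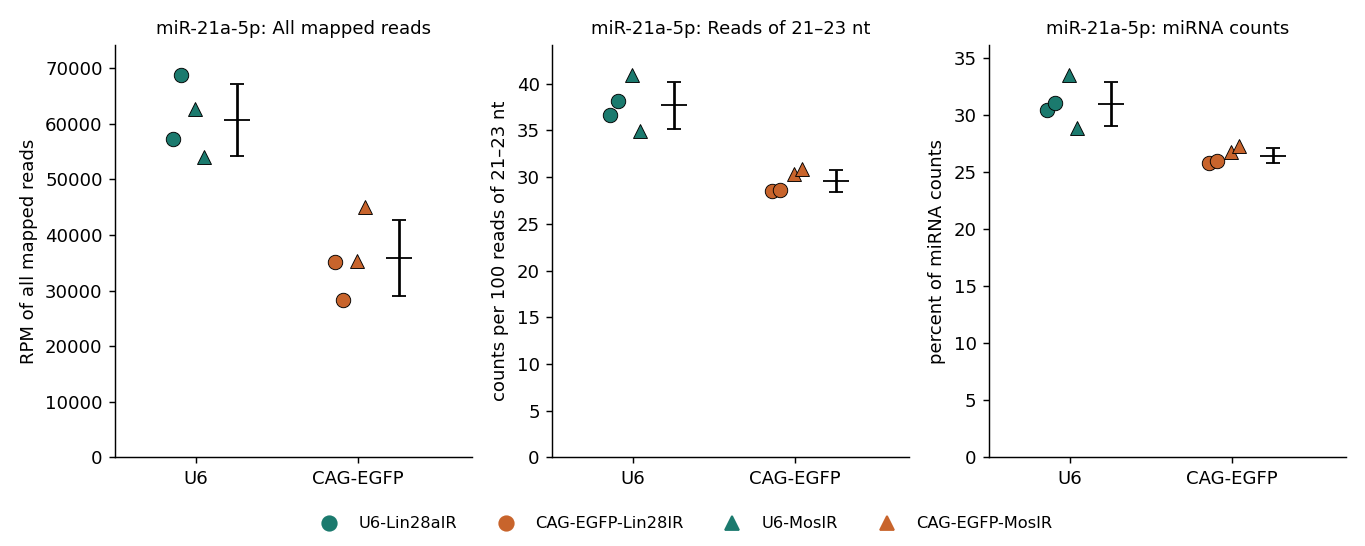
The 5p arm with U6 and CAG-EGFP plasmids as RPM of all mapped reads, counts per 100 reads of 21–23 nt, and percent of miRNA counts; points are libraries, horizontal marks and bars the mean ± SD of 4 libraries. The groups do not overlap on any of the 3 axes, and the ratio of the means is 1.69, 1.27 and 1.17 from left to right.

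The 3p arm did not keep that order. Its share of miRNA counts was 0.0140% ± 0.00292 with U6 plasmids and 0.0135% ± 0.00511 with CAG-EGFP plasmids (SD, n = 4 each; ratio 1.03; exact p = 0.886, adjusted p = 0.886). Scaled to 1000000 reads of 21–23 nt it had 170 ± 34.5 counts with U6 plasmids and 151 ± 58.8 with CAG-EGFP plasmids (ratio 1.12; exact p = 0.629, adjusted p = 0.867). The highest library on both scales was CAG-EGFP-MosIR replicate 1 and the lowest CAG-EGFP-MosIR replicate 2, so the range of the CAG-EGFP libraries enclosed that of the U6 libraries.

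Within the Lin28 pair, whose hairpins differ in sequence, the 5p arm in RPM was 1.99 times as high with U6-Lin28aIR as with CAG-EGFP-Lin28IR. Within the Mos pair it was 1.45 times as high with U6-MosIR as with CAG-EGFP-MosIR. As a share of miRNA counts the ratio was 1.19 in the Lin28 pair and 1.16 in the Mos pair. For the 3p arm it was 1.74 in the Lin28 pair and 1.33 in the Mos pair in RPM, and 1.06 and 1.01 as a share, again with the Lin28 pair first. Each rests on 2 libraries against 2, for which no exact test was run.

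Between the hairpin sequences neither arm differed beyond the spread of its libraries, a spread that includes the difference between the promoters. The 5p arm averaged 47311 ± 18848 RPM with Lin28 plasmids and 49221 ± 11746 RPM with Mos plasmids (SD, n = 4 each; ratio 0.961; exact p = 0.829, adjusted p = 0.886). Its share of miRNA counts was 28.3% ± 2.79 with Lin28 plasmids and 29.1% ± 3.08 with Mos plasmids (exact p = 0.743, adjusted p = 0.867). The 3p arm averaged 20.5 ± 7.42 RPM with Lin28 plasmids and 24.4 ± 6.74 RPM with Mos plasmids (exact p = 0.457, adjusted p = 0.867). The ranges overlapped on every scale. For the 5p arm this was certain, because each range holds both promoters, which did not overlap. With CAG-EGFP plasmids alone its share was 25.9% and 26.0% for Lin28 and 26.7% and 27.3% for Mos, without overlap. With U6 plasmids alone the Lin28 libraries, at 30.4% and 31.0%, lay between the Mos libraries, at 28.9% and 33.5%. Lin28 against Mos within a promoter was not tested.

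The arms were also tested together with all other miRNAs, in an edgeR quasi-likelihood fit of the 4 plasmids with TMM factors, which set the bulk of the miRNAs to no change. Values are log2 fold changes ± SE, and adjusted p is over the 360 miRNAs (Benjamini-Hochberg, edgeR). For U6 against CAG-EGFP the 5p arm gave 0.27 ± 0.17 (adjusted p = 0.609) and the 3p arm 0.11 ± 0.20 (adjusted p = 0.924). Neither passed the threshold of 0.05, and 2 of the 360 miRNAs, 0.556%, did, with 32 at an unadjusted p under 0.05.

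Within the Lin28 pair, U6-Lin28aIR against CAG-EGFP-Lin28IR, the 5p arm gave 0.24 ± 0.24 and the 3p arm 0.07 ± 0.28, and 0.556% of the miRNAs passed. Within the Mos pair, U6-MosIR against CAG-EGFP-MosIR, the 5p arm gave 0.29 ± 0.24 and the 3p arm 0.14 ± 0.28, and 0% passed. Lin28 against Mos gave 0.01 ± 0.17 for the 5p arm and -0.17 ± 0.20 for the 3p arm. The interaction, the difference between the Lin28 pair and the Mos pair, gave -0.05 ± 0.35 for the 5p arm and -0.07 ± 0.40 for the 3p arm. In both of these comparisons 0% of the miRNAs passed, with 10 at an unadjusted p under 0.05 for Lin28 against Mos and 13 for the interaction (edgeR), and the adjusted p of both arms was at least 0.970. The SE of about 0.2 to 0.4 leaves room for sizable differences in either direction.

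These calls changed with the scale. With the deposited totals of mapped reads as library sizes and no TMM, the 5p arm was higher with U6 plasmids by 0.76 ± 0.22 (adjusted p = 0.00594, edgeR) and the 3p arm by 0.61 ± 0.19 (adjusted p = 0.00999, edgeR). The median of all 360 miRNAs was then 0.50, and 50.8% of them passed, 181 up and 2 down. Relative to that median the 5p arm lay 0.26 and the 3p arm 0.11 higher. In the Lin28 pair the 5p arm gave 0.99 ± 0.32 (adjusted p = 0.0109, edgeR) and the 3p arm 0.80 ± 0.27 (adjusted p = 0.0151, edgeR), where 56.7% of the miRNAs passed and the median was 0.75. In the Mos pair the 5p arm gave 0.54 ± 0.32 and the 3p arm 0.42 ± 0.27, and 0% of the miRNAs passed (38 at an unadjusted p under 0.05). The difference between the pairs was 0.45 ± 0.45 for the 5p arm and did not pass (adjusted p = 0.564, edgeR).

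**Figure D3:**
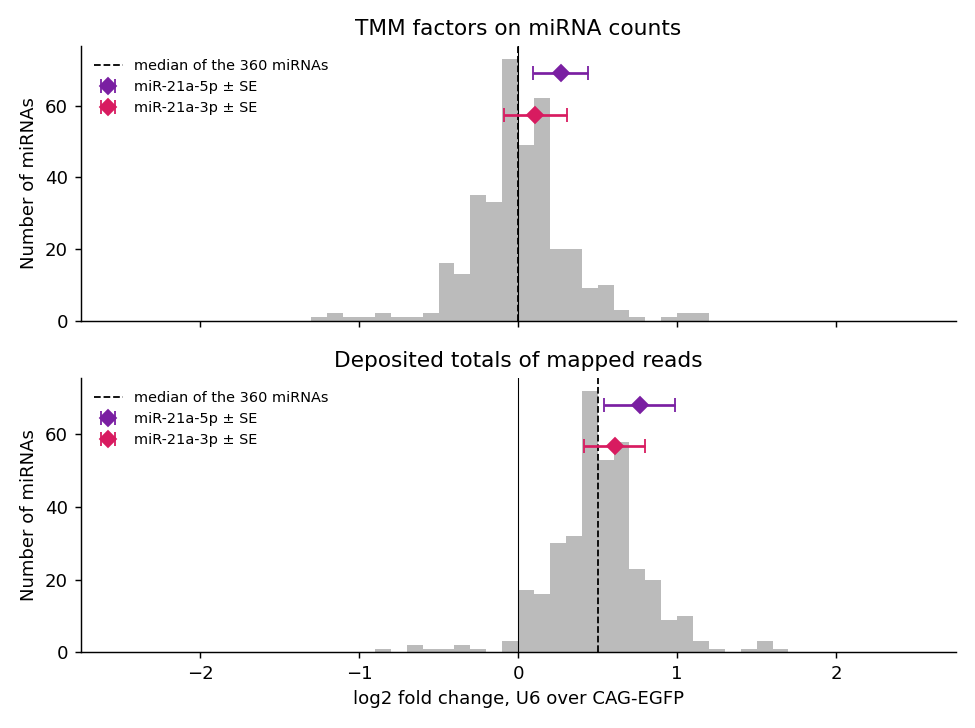
Log2 fold change of U6 over CAG-EGFP for the 360 tested miRNAs (gray histogram, dashed line at their median) with TMM factors (top) and with deposited totals of mapped reads (bottom); diamonds are the arms with their SE. The 5p arm lies at 0.27 and 0.76 and the 3p arm at 0.11 and 0.61, while the median is at 0.00 and 0.50.

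The arms of the hairpin were very unequal. Per 1000 counts of the 5p arm, the 3p arm had 0.533 and 0.315 counts with U6-Lin28aIR, 0.463 and 0.484 with CAG-EGFP-Lin28IR, 0.468 and 0.491 with U6-MosIR, and 0.776 and 0.322 with CAG-EGFP-MosIR. The 5p arm was thus between 1288 and 3172 times as frequent as the 3p arm. Within CAG-EGFP-MosIR and within U6-Lin28aIR the 95% Wilson intervals of the 2 libraries did not overlap. In CAG-EGFP-MosIR the 3p arm was 0.0776% of both arms in replicate 1 (0.0702 to 0.0857%) and 0.0322% in replicate 2 (0.0281 to 0.0368%). These replicates of the same plasmid differed more than counting error allows.

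The mean ratio was 0.452 ± 0.0948 with U6 plasmids and 0.511 ± 0.191 with CAG-EGFP plasmids (SD, n = 4 each; exact p = 0.743, adjusted p = 0.867). It was 0.449 ± 0.0937 with Lin28 plasmids and 0.514 ± 0.190 with Mos plasmids (exact p = 0.600, adjusted p = 0.867). In a limma fit of the log2 ratio of the arms over 117 hairpins, the ratio of 3p to 5p changed by -0.13 ± 0.35 for U6 against CAG-EGFP (adjusted p = 0.966, limma) and by -0.15 ± 0.35 for Lin28 against Mos (adjusted p = 0.977, limma). In both fits 0% of the hairpins passed, with 7 at an unadjusted p under 0.05 for U6 against CAG-EGFP and 2 for Lin28 against Mos (limma). The sign turned without CAG-EGFP-MosIR replicate 1, to 0.18 for U6 against CAG-EGFP and 0.17 for Lin28 against Mos, and without U6-Lin28aIR replicate 2, to 0.054 and 0.037.

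**Figure D4:**
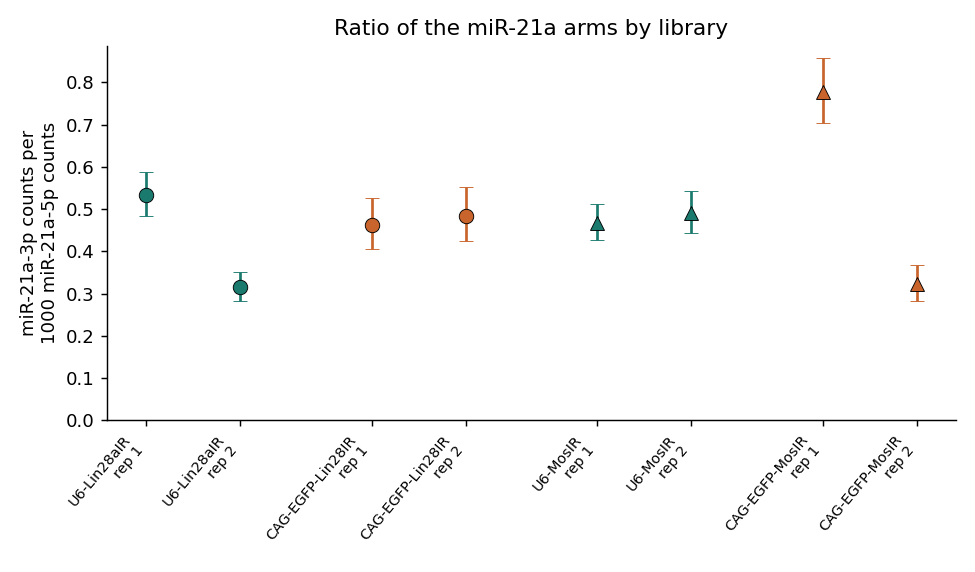
Counts of the 3p arm per 1000 counts of the 5p arm in each library, with 95% Wilson intervals for counting error; circles are Lin28 and triangles Mos plasmids, green U6 and orange CAG-EGFP. The highest value, 0.776, and one of the lowest, 0.322, are the 2 libraries of CAG-EGFP-MosIR.

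Arms were paired by name, which leaves out miRNAs whose arms carry different names. Among the 108 hairpins so paired with at least 10 RPM over both arms, the rarer arm of miR-21a had the second lowest share. This share was 0.0462% of both arms over all libraries, where the median hairpin had 2.87%. The hairpin below it was let-7g, with 0.0261% in its 3p arm, and the next above it miR-497a, with 0.0521%, a share that rests on 1 count. The 3p arm of miR-21a had 2617 counts in all, so its share is known more closely than that of miR-497a.

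Of the paralogs, miR-21c was counted at about the level of the 3p arm. It had 285 and 423 counts with U6-Lin28aIR, 177 and 182 with CAG-EGFP-Lin28IR, 406 and 278 with U6-MosIR, and 222 and 219 with CAG-EGFP-MosIR. In RPM it averaged 23.7 ± 3.59 with U6 plasmids and 13.6 ± 1.96 with CAG-EGFP plasmids (SD, n = 4 each), and every U6 library was above every CAG-EGFP library, as in 31.1% of all tested miRNAs. Its log2 fold change for U6 against CAG-EGFP was 0.30 ± 0.15 with TMM (adjusted p = 0.539, edgeR) and 0.81 ± 0.18 with deposited totals (adjusted p = 0.00123, edgeR).

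Per 1000 counts of miR-21a-5p, miR-21c had 0.331 to 0.443 counts, a narrower range than the 0.315 to 0.776 of the 3p arm. Reads of the 5p arm and of miR-21c that end within their first 15 bases could not be told apart, and the paper's mapping settings required more matching bases than these. Whether reads that start upstream of the mature arms are shared between the loci was not tested, so the level of miR-21c is uncertain. Perfect matches to miR-21b came to 0 to 3 counts per library, 5 in all, against 112 with up to 2 mismatches. With so few counts no level of miR-21b can be compared between plasmids.

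**Figure D5:**
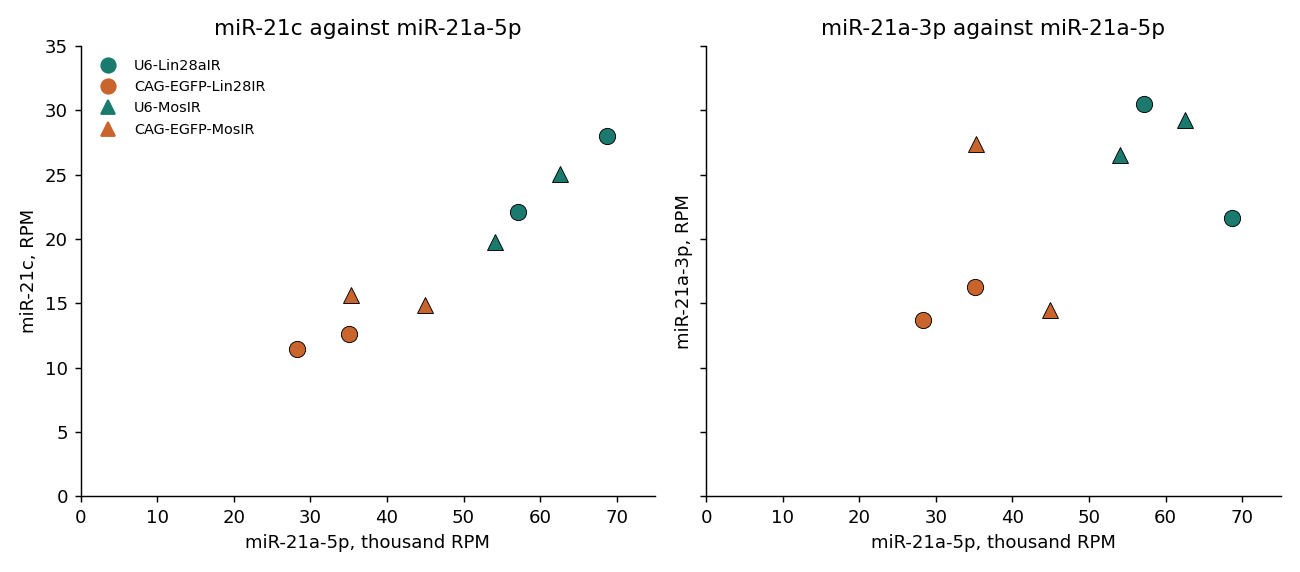
RPM of miR-21c (left) and of the 3p arm (right) against RPM of the 5p arm, 1 point per library, with all 3 levels divided by the same mapped reads. The miR-21c points follow the 5p arm from 11.4 to 28.0 RPM, whereas CAG-EGFP-MosIR replicate 1 has 27.4 RPM of the 3p arm at 35297 RPM of the 5p arm.

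Mismatches changed the arms little. Perfect matches were 99.4% of the 5p counts with up to 2 mismatches and 98.6% of the 3p counts, where the median over 194 miRNAs with at least 1000 such counts was 99.3%. For miR-21c, 2 counts were added by mismatches, and for the 5p arm 36829.

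The miRNAs whose levels most resembled those of the arms were taken from the 187 with at least 10 RPM, by Pearson's r over the 8 libraries. These correlations describe libraries that share their denominators and fall into 2 promoter groups. In log2(RPM + 1), the highest r with the 5p arm were those of miR-26b-5p (0.99), miR-152-3p (0.98), miR-5099 (0.98), miR-421-3p (0.98) and miR-10b-3p (0.98). The median over the 186 others was 0.86 and 183 of them were above 0, so most miRNAs followed the 5p arm on this scale. By log2 share of miRNA counts, where the median was -0.12, the highest were miR-10b-3p (0.81), miR-450b-5p (0.80), miR-362-5p (0.79), miR-26b-5p (0.78) and miR-21c (0.78).

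The 3p arm did not appear among these. Its own r with the 5p arm was 0.61 in log2(RPM + 1), in place 166 of 186, and 0.11 by share, in place 62. The miRNAs nearest to the 3p arm were miR-362-3p (0.90), miR-18a-5p (0.89), miR-301a-3p (0.85), miR-322-5p (0.84) and miR-378c (0.84) in log2(RPM + 1). By share they were miR-362-3p (0.89), miR-18a-5p (0.88), miR-503-5p (0.80), miR-29c-3p (0.78) and miR-301a-3p (0.77). None of the 5 nearest was common to both arms on the same scale.

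Because miR-21 is known as a signal-induced miRNA, 17 other miRNAs that AP-1, NF-κB, STAT3 or TGF-β signaling can raise were set beside it. Of these, 16 had enough counts to be tested and 0 passed for U6 against CAG-EGFP or for Lin28 against Mos (edgeR with TMM; 0 at an unadjusted p under 0.05 in either), beside 0.556% and 0% of all 360. For U6 against CAG-EGFP, 8 lay above 0, with a median log2 fold change of 0.00 and a range of -0.26 to 0.29, beside a median of 0.00 for all 360. The 5p arm, at 0.27, lay near the upper end of that range. That end was set by 2 rare members, miR-146a-5p (0.29 ± 0.46, at 0.709 RPM) and miR-132-3p (0.27 ± 0.36, at 1.32 RPM). Of the 14 members with at least 10 RPM, the highest was miR-146b-5p, at 0.18 ± 0.14. The 5p arm lay above it by less than the SE of either. With deposited totals, 7 of the 16 passed for U6 against CAG-EGFP, all 7 of them higher with U6 plasmids, beside 50.8% of all miRNAs (edgeR).

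Of the list, the most abundant were miR-31-5p (9789 ± 1594 RPM with U6 plasmids and 7261 ± 1889 RPM with CAG-EGFP plasmids; SD, n = 4 each), miR-24-3p (3098 ± 290 RPM with U6 and 2623 ± 551 RPM with CAG-EGFP plasmids), miR-23a-3p (3098 ± 241 RPM with U6 and 2124 ± 378 RPM with CAG-EGFP plasmids) and miR-27a-3p (2536 ± 280 RPM with U6 and 2118 ± 426 RPM with CAG-EGFP plasmids). With TMM the log2 fold change, U6 over CAG-EGFP, was -0.05 ± 0.17 for miR-31-5p, -0.26 ± 0.16 for miR-24-3p, 0.06 ± 0.15 for miR-23a-3p and -0.24 ± 0.16 for miR-27a-3p. A further member, miR-155-5p, which NF-κB and AP-1 induce in immune cells, averaged 138 ± 7.40 RPM with U6 plasmids and 112 ± 15.4 RPM with CAG-EGFP plasmids, and was named for its role after the values were seen.

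The libraries held all the fibroblast markers that were looked up, and some markers of other tissues. All 12 fibroblast and mesenchymal miRNAs had at least 10 RPM, with a sum of 24478 to 32106 RPM in U6 libraries and 16467 to 24054 RPM in CAG-EGFP libraries. Of 9 embryonic stem cell miRNAs 8 had 0 counts, and the 7 blood miRNAs summed to 1.72 to 3.26 RPM in U6 libraries and 1.07 to 2.99 RPM in CAG-EGFP libraries, with 0 of them at 10 RPM. The 7 muscle and neuron miRNAs summed to 240 to 283 RPM in U6 libraries and 146 to 211 RPM in CAG-EGFP libraries. Of these 7, 2 had at least 10 RPM. The 8 epithelial ones summed to 44.4 to 63.8 RPM in U6 libraries and 25.7 to 44.2 RPM in CAG-EGFP libraries, with 1 of them at 10 RPM or more. The sums of the fibroblast, muscle and neuron, and epithelial lists were higher in every U6 library than in every CAG-EGFP library in RPM, the scale on which 31.1% of all miRNAs were so separated, and so was the sum of the signal-induced list (21918 to 27357 RPM in U6 libraries and 13663 to 21372 RPM in CAG-EGFP libraries). With TMM 0 tested members of any of these lists passed for U6 against CAG-EGFP, beside 0.556% of all 360 (edgeR). Tested were 16 signal-induced, 12 fibroblast, 5 muscle and neuron, 2 epithelial, 1 blood and 0 embryonic stem cell miRNAs. With so few tested, 0 passing says little about these lists. The 12 fibroblast members had a median log2 fold change of -0.03, with 4 of them above 0. The signal-induced and fibroblast lists share members, so their sums and medians are not separate results. The part that cell mixture, read length or library composition plays in the levels of the 5p arm was not tested.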

How the data were processed

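Total RNA of transfected 3T3 cells was made into small RNA libraries with the NEXTflex Small RNA-Seq Kit v3 and sequenced on the Illumina HiSeq2000. The authors trimmed adapters and end bases with bbduk, aligned the trimmed reads by STAR 2.5.3a against mm10 plus the plasmid sequences, allowed up to 2 mismatches, and kept all multimapping reads. The deposited values are raw counts per mature miRNA locus with 0, 1 or 2 mismatches and counts of mapped reads per library and length class. The rule by which reads were assigned to miRNAs was not given in the sources used here.

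For each mature name the locus with the highest total was used. Tests were made in R 4.3.3 with edgeR 4.0.16 (TMM, filterByExpr, robust quasi-likelihood, Benjamini-Hochberg), with limma 3.58.1 on log2 arm ratios (pseudocount 0.5, at least 40 counts per arm), and with two-sided exact permutation tests, of which there were 14. SDs over 4 libraries join 2 plasmids. Both model fits were tested on simulated data. Alternatives were deposited totals, DESeq2 1.42.0, TMM without miR-21a, no filter, mismatches, a replicate block, other denominators and loci, and leaving out each library. The members and lists were chosen with earlier results of these data known. Named miRNAs are the arms, names with the same seed or of the miR-21 family, the 4 next most abundant, the 5 with the most similar levels on each scale, the hairpins next in arm share, and list members past the threshold or among the 4 most abundant.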

Additional observations from a re-analysis of the deposited data

How the results depend on the processing

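Of 138 alternative values other than those with a library left out, 126 kept their direction and their side of the threshold over 26 results. A further 4 passed the threshold and 8 turned sign, and none of the values that turned passed the threshold. For the 14 results of exact tests the adjusted p could not pass 0.05, so only their direction could change. The 4 that passed are the log2 fold changes with deposited totals and no TMM (0.76 and 0.61 for the 5p and 3p arm, U6 against CAG-EGFP, and 0.99 and 0.80 in the Lin28 pair). This setting raised the miRNAs called for U6 against CAG-EGFP to 183, from 2 with TMM, and in the Lin28 pair to 204, from 2. The log2 fold change of the 5p arm for Lin28 against Mos (0.01) turned to -0.12 with deposited totals, -0.028 with DESeq2, -0.0094 with TMM without miR-21a and -0.048 without the filter. The interaction turned to 0.45 (5p) and 0.38 (3p) with deposited totals and to 0.055 (5p) and 0.042 (3p) without the filter. The causes were not tested.

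The replicate numbers were not used to pair the libraries, since deviations of same-numbered libraries correlated between -0.15 and 0.20. Whether same-numbered libraries were handled together is not stated in the sources used here. With the number as a block, the U6 against CAG-EGFP values were 0.27 for the 5p arm and 0.12 for the 3p arm (edgeR, adjusted p = 0.765 and 0.904), and the block changed no call of the arms.

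With 1 library left out, 174 of 208 values kept their direction and 34 turned sign. Where a plasmid kept 1 library its spread was taken from the other groups. For U6 against CAG-EGFP the 5p arm gave 0.16 to 0.35 and the 3p arm -0.11 to 0.38 (log2, edgeR), with negative values without U6-Lin28aIR replicate 1 or CAG-EGFP-MosIR replicate 2. The 3p arm gave -0.32 to 0.34 in the Lin28 pair, -0.28 to 0.74 in the Mos pair, -0.39 to 0.10 for Lin28 against Mos and -0.72 to 0.34 for the interaction. The 5p arm gave -0.078 to 0.061 for Lin28 against Mos and -0.22 to 0.075 for the interaction. The ratio of means for U6 against CAG-EGFP ranged from 0.925 to 1.26 for the 3p share of miRNA counts and from 0.787 to 1.07 for the counts of 3p per 5p. For Lin28 against Mos it ranged from 0.816 to 1.09 for the 5p arm in RPM, from 0.913 to 1.03 per 21–23-nt reads, from 0.942 to 1.03 as a share, and from 0.776 to 1.05 for the counts of 3p per 5p. The log2 arm ratio of the limma fit ranged from -0.45 to 0.18 for U6 against CAG-EGFP and from -0.47 to 0.17 for Lin28 against Mos. The 5p ratios for U6 against CAG-EGFP stayed above 1, at 1.58 to 1.84 in RPM, 1.24 to 1.30 per 21–23-nt reads and 1.14 to 1.20 as a share. The 3p arm rests on 213 to 475 counts per library, which limits its precision.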
